A study of Xenopus laevis with 11 samples.

Results

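Chromosomes 9_10L and 9_10S of the African clawed frog Xenopus laevis were described through the peaks of H3K4me3 and p300 that lie on them. All intervals of the series-wide H3K4me3 and p300 lists that name either chromosome were taken, which gave 4974 of 49958 regions. Of these, 1358 H3K4me3 and 1438 p300 peaks lay on 9_10L, and 1105 H3K4me3 and 1073 p300 peaks lay on 9_10S. The peaks came from chromatin immunoprecipitation followed by sequencing (ChIP-seq) of whole embryos at Nieuwkoop-Faber stage 10.5, the early gastrula. Embryos were pooled and fixed in formaldehyde, and the labels name no treatment, genotype or strain. One group was precipitated with an antibody against H3K4me3 (Abcam ab8580) and the other with an antibody against p300 (C-20, Santa Cruz sc-585), with 2 replicates each. No label ties the replicates to separate clutches, so their spread may be technical. A whole embryo mixes germ layers, so a peak shared by few cells and a weak peak in all cells cannot be told apart.

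Xenopus laevis is an allotetraploid: its genome joins those of a pair of ancestral species, and its chromosomes come in homeologous pairs of a longer L and a shorter S member. The pair 9_10 descends from a fusion of chromosomes that remain separate in the diploid relative Xenopus tropicalis. H3K4me3, the trimethylation of lysine 4 of histone H3, marks the promoters of active and poised genes. The acetyltransferase p300 is a coactivator that acetylates histones at enhancers and promoters, and its binding is widely used to find enhancers. At the early gastrula, the zygotic genome has recently become active and the germ layers are being specified.

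The deposited lists give the position of each peak and no signal, so numbers of peaks, their widths and their places were the only measurements, and read depth is unknown. The replicate lists differed in size. H3K4me3 replicates 1 and 2 held 1754 and 1473 peaks on 9_10L and 1423 and 1217 on 9_10S. The p300 replicates held 1944 and 2981 peaks on 9_10L and 1516 and 2460 on 9_10S, so the second p300 list was the longer on both chromosomes. On 9_10L, 92.1% of the H3K4me3 replicate 2 peaks overlapped a replicate 1 peak (exact 95% Clopper-Pearson interval 90.6 to 93.4%). The like share on 9_10S was 90.7% (88.9 to 92.3%). For p300, 47.2% of the replicate 2 peaks on 9_10L recurred in replicate 1 (45.4 to 49.01%) and 42.8% on 9_10S (40.8 to 44.7%). Recurrence of replicate 2 peaks on the other 16 L and S chromosomes was 91.6% for H3K4me3 and 40.5% for p300. In the other direction, 75.6% of H3K4me3 replicate 1 peaks on 9_10L and 75.5% on 9_10S recurred in replicate 2. For p300 these shares were 73.5% and 70.4%, so in that direction the targets were closer. Replicate 2 was the shorter list for H3K4me3 and the longer for p300. With equal numbers of the widest peaks of each replicate, the longer list was cut, replicate 1 for H3K4me3 and replicate 2 for p300. Of the replicate 1 peaks kept on 9_10L, 84.5% recurred for H3K4me3 and 55.6% for p300. Cutting p300 replicate 2 cannot raise the share of replicate 1 peaks that recur. Cutting H3K4me3 replicate 1 removes its narrow peaks. On 9_10L its peaks that did not recur had a median width of 379 bp, against 1495 bp for those that did. This setting therefore cannot show which target recurred more at equal list size. The part of list size in these shares was not tested further. Clopper-Pearson intervals take peaks as independent draws and reflect counting error alone. Each series-wide peak on the pair was identical to the stretch shared by a replicate 1 and a replicate 2 peak. Every member thus overlapped a peak of both replicates, in some cases by few bases. Members narrower than 50 bp numbered 2 for H3K4me3 and 14 for p300 on 9_10L, and 2 and 5 on 9_10S. A replicate peak can also yield several members: 1326 recurring H3K4me3 replicate 1 peaks on 9_10L gave 1358.

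Both chromosomes carried more peaks per Mb of span, taken up to the last peak of any list, than most others. 9_10L held 11.5 H3K4me3 peaks per Mb of span, with 14.9 and 12.5 in replicates 1 and 2, and ranked first of 18 chromosomes in all 3 lists. 9_10S held 10.6 H3K4me3 peaks per Mb and ranked 4 of 18 in all 3 lists. The other 16 chromosomes together held 8.63 per Mb. For p300, 9_10L held 12.2 peaks per Mb and ranked 2 in the series-wide list, behind 8L with 12.3, and 9_10S held 10.3 and ranked 6. The other 16 chromosomes held 8.97 p300 peaks per Mb. These are ranks of single chromosomes and were not tested: 1 pair set against 8 others cannot give an exact p below 0.111. The series-wide lists held 49958 regions, of which 4974 lay on this pair and 40234 on the other 16 chromosomes, and the rest lay elsewhere. Span is a lower bound of length. In assembly Xenopus_laevis_v10.1, genes reach 137.8 Mb on 9_10L and 117.2 Mb on 9_10S. How the completeness of the files' build affects these ranks and the L to S ratios per Mb was not tested. Peak widths showed no such contrast. The median H3K4me3 width was 1149.5 bp on 9_10L and 1127 bp on 9_10S, against 1115 bp elsewhere, and the median p300 width was 218 bp on both, against 214 bp.

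The L member held more peaks of both targets than the S member. The log2 ratio of H3K4me3 peaks, 9_10L over 9_10S, was 0.30 in the series-wide list, with 0.30 and 0.28 in replicates 1 and 2. For p300 it was 0.42, with 0.36 and 0.28 in the replicates. The chromosomes also differed in length, with spans of 117.876 and 104.606 Mb up to the last peak of any list. That difference in span, 0.17 on the log2 scale, was the smallest among the 9 pairs. Per Mb of span the ratio was 0.13 for H3K4me3, with 0.13 and 0.10 in the replicates. For p300 it was 0.25 per Mb, with 0.19 and 0.10 in the replicates. 9_10L was therefore the denser chromosome in each of the 6 lists, which are not independent, since the series-wide lists hold what the replicates share. Among the other 8 pairs the series-wide ratio per Mb ran from -0.051 to 0.23 for H3K4me3 and from 0.017 to 0.28 for p300. By this ratio the pair 9_10 ranked 5 of 9 for H3K4me3 and 2 of 9 for p300. By the ratio of counts it ranked 7 and 5. A denser L member was thus not particular to this pair. The ratio of the p300 counts exceeded that of the H3K4me3 counts by 0.12 in the series-wide lists, by 0.057 between the replicate 1 lists and by 0.0017 between the replicate 2 lists. Among the other 8 pairs this difference ran from -0.047 to 0.16 in the series-wide lists, and the pair 9_10 ranked 4 of 9.

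**Figure D1:**
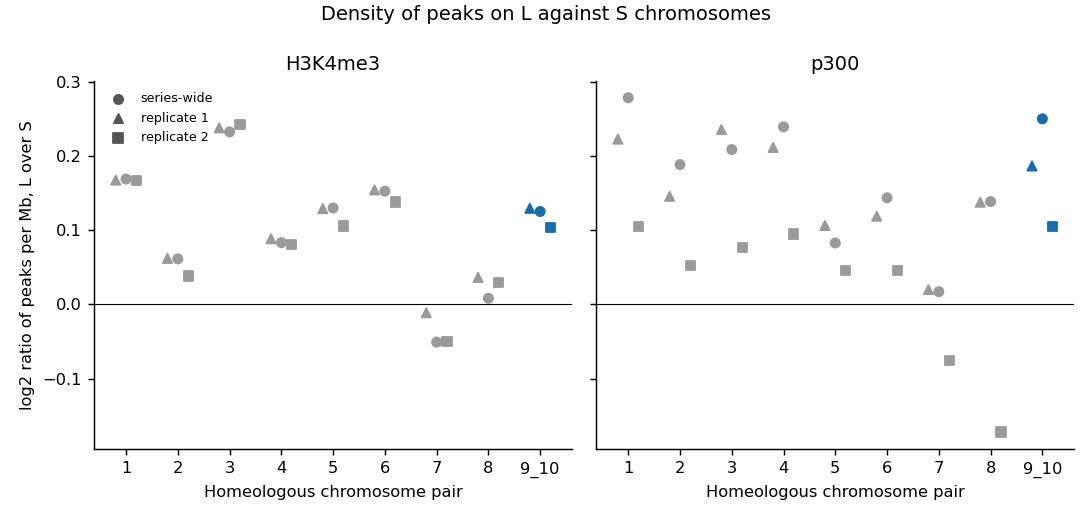
Log2 ratio of peaks per Mb of span, L over S, for the 9 homeologous pairs (x axis), with H3K4me3 on the left and p300 on the right. Circles are series-wide lists, triangles replicate 1 and squares replicate 2; the pair 9_10 is blue and lies above 0 in every list, from 0.10 to 0.25.

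The distribution of peaks along 9_10L resembled that along 9_10S. Each chromosome was divided into 20 equal parts of its span, numbered in the direction of the files. For H3K4me3 the counts of the 20 parts had a Pearson r of 0.93 between the chromosomes (Spearman rho 0.87), with r of 0.95 and 0.92 in replicates 1 and 2. For p300 r was 0.85 (rho 0.77), with 0.84 and 0.83 in the replicates. The values for the other 8 pairs ran from -0.071 to 0.91 for H3K4me3 and from -0.066 to 0.80 for p300, and pair 6 gave the highest of them for both targets. For H3K4me3 in replicate 2 the 2 pairs were nearly level, at 0.9209 for 9_10 and 0.9206 for pair 6. The lowest series-wide r came from pair 3 for H3K4me3 and from pair 8 for p300. In the series-wide list, 8L held 12.3% of its p300 peaks in its first part and 8S 11.5% in its last. Whether the members of each pair run in the same direction in the files was not tested. These correlations are descriptions over parts of single chromosomes, which share libraries and mapping, and carry no p. They also depended on scale: over 100 parts r was 0.60 for H3K4me3 and 0.44 for p300, and pair 6 was higher for both. Without parts 1 and 8, the richest on both chromosomes, r over the other 18 parts was 0.82 and 0.72.

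**Figure D2:**
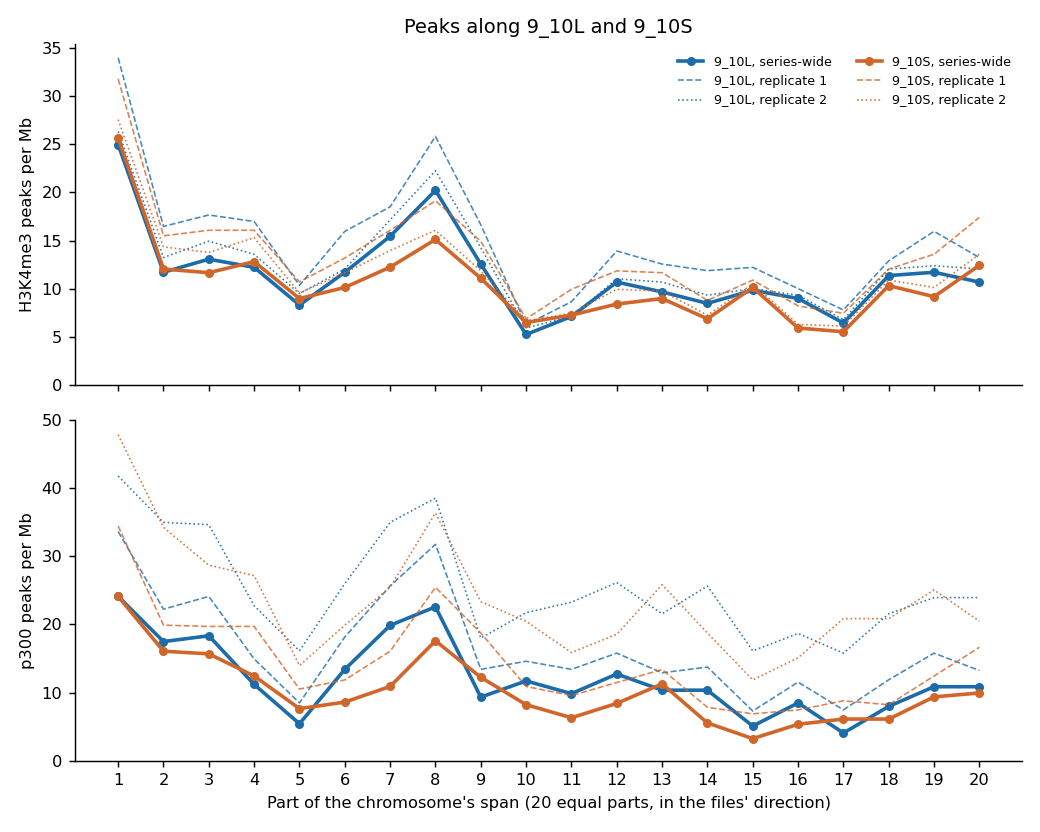
H3K4me3 (top) and p300 (bottom) peaks per Mb in 20 equal parts of 9_10L (blue) and 9_10S (orange). Solid lines with points are series-wide lists, dashed lines replicate 1 and dotted lines replicate 2; parts 1 and 8 are the richest of both chromosomes in both series-wide lists.

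The first part of 9_10L and of 9_10S held the most peaks, but some other chromosomes had a like or larger share there. In the series-wide lists it held 10.8% and 12.1% of the H3K4me3 peaks, ranks 5 and 3 of 18, with 6S highest at 14.0%. For p300 it held 9.87% and 11.7%, ranks 6 and 2, with 8L highest at 12.3%. Part 1 of 9_10L held 147 H3K4me3 peaks, with 200 and 155 in replicates 1 and 2, and 142 p300 peaks, with 198 and 246. Part 1 of 9_10S held 134 H3K4me3 peaks, with 166 and 144, and 126 p300 peaks, with 180 and 250. The series-wide densities there were 24.9 and 25.6 H3K4me3 peaks per Mb on 9_10L and 9_10S, and 24.1 p300 peaks per Mb on both, so the densities of L and S were close in that part. Part 8 came next on both. It held 119 H3K4me3 and 133 p300 peaks on 9_10L, and 79 and 92 on 9_10S. The opposite end was less rich, with 63 H3K4me3 and 64 p300 peaks in part 20 of 9_10L and 65 and 52 in part 20 of 9_10S.

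The poorest parts differed by target in the series-wide lists. H3K4me3 peaks were fewest in part 10 of 9_10L, with 31 peaks (37 and 35 in the replicates), and in part 17 of 9_10S, with 29 peaks (39 and 32). Part 10 of 9_10S held 34. The p300 peaks were fewest in part 17 of 9_10L, with 24 peaks (44 and 93 in the replicates), and in part 15 of 9_10S, with 17 peaks (36 and 62). Part 15 of 9_10L was next to lowest there, with 30 p300 peaks. H3K4me3 was not low in part 15, where 58 peaks lay on 9_10L and 53 on 9_10S.

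H3K4me3 and p300 peaks were not in constant proportion along the chromosomes. In the series-wide lists the number of p300 peaks per H3K4me3 peak ran over 9_10L from 0.517 in part 15 to 2.23 in part 10. Over 9_10S it ran from 0.321 in part 15 to 1.34 in part 3, with 1.26 in part 10. The level and some extremes depended on the list. In replicates 1 and 2, part 15 had 0.597 and 1.61 on 9_10L and 0.632 and 1.13 on 9_10S. Part 10 of 9_10L stayed highest, with 2.32 and 3.66, whereas the maximum of 9_10S was in part 10 in replicate 1, with 1.58, and in part 17 in replicate 2, with 3.41. Part 15 was lowest on both chromosomes in the series-wide and replicate 1 lists, and in replicate 2 it was lowest on 9_10S, whereas part 9 was lowest on 9_10L. Across the 20 parts the log2 of this ratio had an r of 0.60 between the chromosomes (rho 0.41), with r of 0.55 and 0.53 in the replicates. The pair ranked 3 of 9 for it in the series-wide and replicate 1 lists and 6 of 9 in replicate 2. Parts named here other than the richest and poorest in peaks were singled out after their values were seen.

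**Figure D3:**
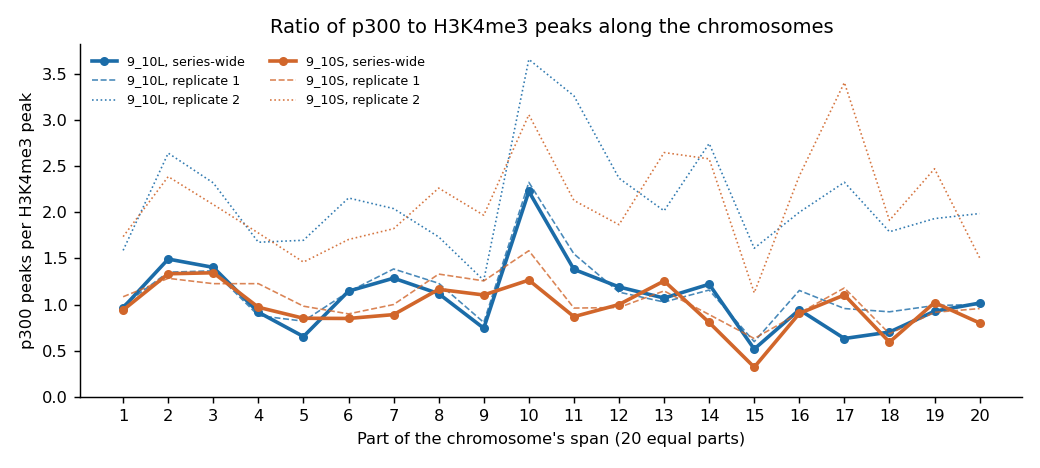
Number of p300 peaks per H3K4me3 peak in 20 equal parts of 9_10L (blue) and 9_10S (orange), from series-wide lists (solid), replicate 1 (dashed) and replicate 2 (dotted). Part 15 is lowest on both chromosomes in the series-wide lists, at 0.517 and 0.321, and part 10 is highest on 9_10L at 2.23.

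The excess of p300 on 9_10L was uneven along its length. Of the 20 parts, 12 were denser in p300 on 9_10L in all 3 lists, 4 were denser on 9_10S in all 3, and 4 were mixed. The same numbers held for H3K4me3. The largest series-wide contrasts in p300 density were 0.90 on the log2 scale in part 14, with 61 peaks on 9_10L and 29 on 9_10S, and 0.87 in part 7, with 117 and 57. In replicates 1 and 2, part 7 held 151 and 206 p300 peaks on 9_10L against 84 and 133 on 9_10S. Part 14 held 81 and 151 against 41 and 98. H3K4me3 in part 7 was denser on 9_10L by 0.34, with 91 and 64 peaks.

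Most p300 peaks of the pair lay outside H3K4me3. On 9_10L, 433 of 1438 p300 peaks, or 30.1% (27.7 to 32.6%), overlapped H3K4me3, and on 9_10S 298 of 1073, or 27.8% (25.1 to 30.6%). The share over all 18 chromosomes was 30.1%, so neither count stood apart from this background. Same-numbered replicate lists of both targets gave 39.2% and 20.5% on 9_10L and 37.7% and 19.6% on 9_10S, in the same order. Set against the series-wide H3K4me3 list, p300 replicates 1 and 2 gave 29.2% and 19.8% on 9_10L and 27.2% and 18.9% on 9_10S. The peaks of p300 replicate 2 that did not recur overlapped series-wide H3K4me3 peaks in 10.2% of cases on 9_10L and 11.9% on 9_10S. Of those that recurred, 30.6% and 28.2% did so. Over the 18 chromosomes the replicate 2 shares were 9.75% without and 30.3% with recurrence. Replicate 1 showed little such contrast. Its peaks that did not recur overlapped in 26.9% of cases on 9_10L and 26.1% on 9_10S, against 30.0% and 27.7% of those that recurred.

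In the other direction, the share of H3K4me3 peaks with p300 was lower on 9_10S than on 9_10L in every list, with no test of the difference. In the series-wide lists it was 237 of 1105, or 21.4% (19.1 to 24.0%), on 9_10S and 347 of 1358, or 25.6% (23.3 to 28.0%), on 9_10L, against 25.2% over the 18 chromosomes. That of 9_10S was the lowest of the 18 in the series-wide lists, next to 1S with 21.6%. In the replicates the shares were 31.2% and 31.9% on 9_10S, rank 15 and 17 of 18. On 9_10L they were 33.9% and 33.0%, rank 4 and 13. Over the 18 chromosomes they were 32.3% and 34.2%. The difference between the chromosomes, 4.10 percentage points, was 2.72 and 1.11 points in the replicates, so its size was not stable.

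On both chromosomes p300 lay in a larger share of the broad H3K4me3 domains than of the narrower ones. H3K4me3 peaks were divided at 849 and 1456 bp into 3 classes of equal number over the 18 chromosomes. On 9_10L, p300 lay in 36.3% of the broad peaks (169 of 465), 19.6% of the medium (91 of 465) and 20.3% of the narrow (87 of 428). On 9_10S the shares were 31.04% (113 of 364), 16.0% (61 of 381) and 17.5% (63 of 360). On the other 16 chromosomes p300 lay in 39.0% of the broad, 20.3% of the medium and 17.0% of the narrow peaks. The p300 replicate lists gave the broad peaks 47.7% and 47.5% on 9_10L and 40.1% and 49.5% on 9_10S. Those lists gave 47.8% and 53.1% on the other 16 chromosomes. A longer peak also has more room for an overlap. Per kb of H3K4me3, broad peaks held 0.202 p300 centres on 9_10L and 0.185 on 9_10S. Medium peaks held fewer, 0.182 and 0.149, and narrow peaks more, 0.317 and 0.281. The order of broad and medium was not stable: in p300 replicate 2 on 9_10L, broad peaks held 0.266 and medium 0.277.

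The p300 peaks outside H3K4me3 lay closer to it than on most chromosomes. The median gap was 13.1 kb on 9_10L (quartiles 3.98 and 34.0 kb), second shortest of 18 after 3L with 12.6 kb. On 9_10S it was 14.7 kb (quartiles 4.44 and 40.7 kb), rank 4. The other 16 chromosomes together had 18.1 kb. In replicates 1 and 2, the medians were 10.7 and 18.5 kb on 9_10L, the shortest of 18 in both, and 12.1 and 20.3 kb on 9_10S, against 15.8 and 25.8 kb elsewhere. The share of p300 peaks over 50 kb from H3K4me3 was 11.1% on 9_10L (9.55 to 12.9%) and 14.8% on 9_10S (12.7 to 17.1%), against 17.6% (17.1 to 18.2%) on the others. H3K4me3 peaks were also denser on this pair, and the part of that density in the shorter gaps was not tested.

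**Figure D4:**
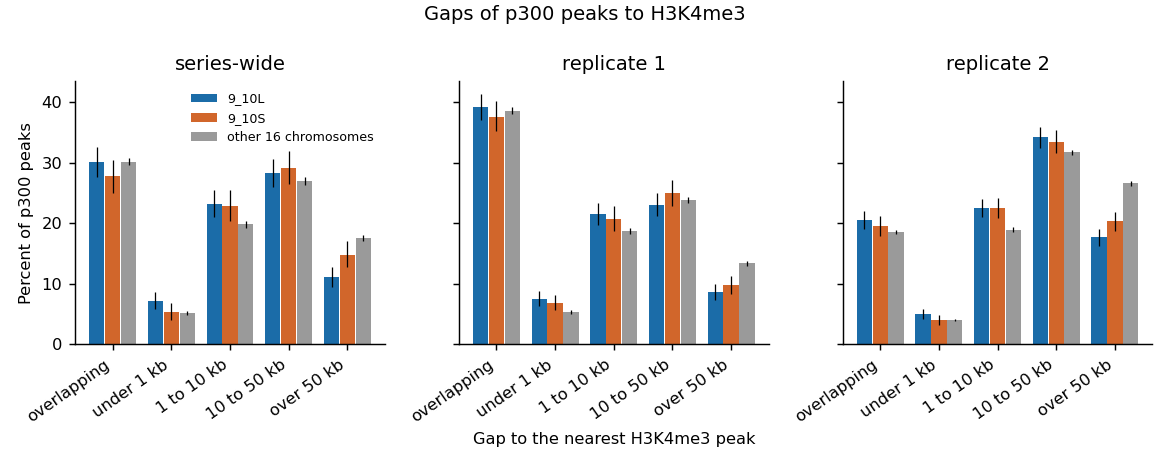
Percent of p300 peaks by gap to the nearest H3K4me3 peak on 9_10L (blue), 9_10S (orange) and the other 16 chromosomes (grey), for the series-wide lists and each replicate. Bars start at 0 and error bars are exact 95% intervals for counting error; the class over 50 kb holds 11.1%, 14.8% and 17.6% in the series-wide lists.

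The widest H3K4me3 peak of 9_10L spanned 8499 bp (positions 21650824 to 21659322) and held 3 p300 peaks. It was followed by peaks of 7794 bp (94105871 to 94113664), with 6 p300 peaks, and 5869 bp (37902559 to 37908427), with 1. On 9_10S the widest were 6713 bp (37180318 to 37187030), with 3 p300 peaks, 6662 bp (1373956 to 1380617), with 6, and 5844 bp (13590372 to 13596215), with none in the series-wide list or replicate 1 and 1 in replicate 2. In the replicate lists these 6 peaks were 5844 to 10940 bp wide. No gene name is given for any region, because the only gene table used, for assembly Xenopus_laevis_v10.1, does not share the positions of these lists: its genes reach 137.8 and 117.2 Mb on the chromosomes whose last peaks end at 117.9 and 104.6 Mb.

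The widest p300 peaks were far narrower. On 9_10L they spanned 1158 bp (89775589 to 89776746), 993 bp (65162111 to 65163103) and 982 bp (43242161 to 43243142), and each overlapped H3K4me3 in every list. On 9_10S they spanned 904 bp (2663149 to 2664052), 870 bp (16737128 to 16737997) and 822 bp (32669569 to 32670390). The first of these overlapped H3K4me3 in every list, the second in replicate 1 alone, and the third in none.

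Windows of 100 kb with the most H3K4me3 peaks lay mostly near the rich end. On 9_10L they began at 2570121 and 4135547, with 10 peaks each, and at 819179, with 8. In replicates 1 and 2 these windows held 8 and 10, 15 and 11, and 10 and 8. On 9_10S they began at 3083664, with 13 peaks, 16680309, with 12, and 3835624, with 10. The replicates held 14 and 13, 16 and 14, and 9 and 10 there. A 100 kb window held 1.15 H3K4me3 peaks on average on 9_10L and 1.06 on 9_10S. The window at 16680309 of 9_10S also held 15 p300 peaks and overlapped the richest p300 window of that chromosome, which began at 16698674 with 16 p300 and 10 H3K4me3 peaks. The other p300 windows of 9_10S began at 10978396, with 14 p300 peaks, and 766399, with 13. On 9_10L the p300 windows began at 40550397, 79406547 and 13434781, with 23, 22 and 15 p300 peaks. They held 3, 2 and 3 H3K4me3 peaks in the series-wide list, 5, 7 and 5 in replicate 1 and 3 in each in replicate 2, above the average of the chromosome but far fewer than their p300 peaks.

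Runs of closely spaced p300 peaks occurred on both chromosomes. With clusters set as at least 5 peaks with neighbouring gaps of at most 12.5 kb, 9_10L held 47 clusters with 327 peaks, or 22.7% of its p300 peaks, and 9_10S 41 clusters with 285, or 26.6%. These shares ranked 6 and 3 of 18. In replicate 1 they were 24.9% on 9_10L and 28.4% on 9_10S, and in replicate 2 24.3% and 22.9%, ranks 6 and 8, so the order of the 2 chromosomes was reversed there. The cluster with the most peaks on 9_10L (40578014 to 40648055, 70.0 kb) began at 34.4% of the span and held 20 p300 peaks, with 23 and 24 in the replicates. It contained 2 H3K4me3 peaks, of 1181 bp at its start and of 1585 bp near 39.3 kb from the start. That of 9_10S (36930034 to 36985620, 55.6 kb) began at 35.3% of the span and held 13 p300 peaks, with 14 and 16 in the replicates. Its only series-wide H3K4me3 peak was 327 bp wide, 26.1 kb from the start. The peaks behind it were 822 bp wide in replicate 1 and 597 bp in replicate 2. Replicate 1 held a further H3K4me3 peak of 1754 bp centred 49.5 kb from the start, and replicate 2 one of 176 bp at 24.5 kb.

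**Figure D5:**
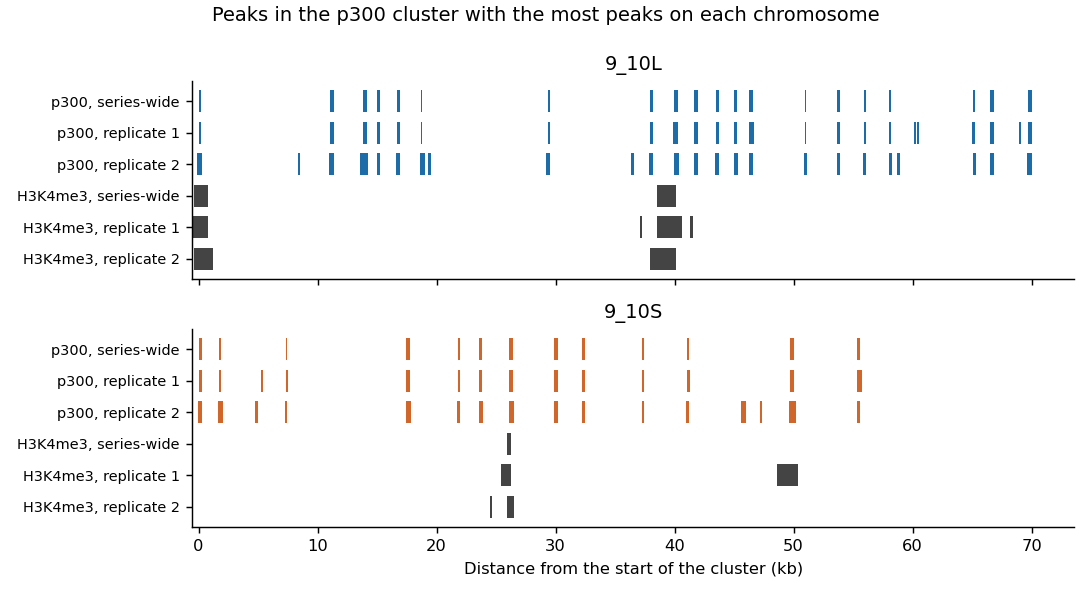
Peaks of p300 (coloured) and H3K4me3 (grey) in each list, by distance in kb from the start of the cluster with the most p300 peaks on 9_10L (top) and 9_10S (bottom). The cluster of 9_10L holds 20 series-wide p300 peaks and that of 9_10S 13, each of which overlaps a peak in both replicates by the way the series-wide lists were made.

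Several large clusters lay at like relative places on the 2 chromosomes, and the examples below were chosen after their values were seen. Of the clusters of 8 or more peaks, 8 of 12 on 9_10L and 9 of 11 on 9_10S had a cluster within 1% of the span on the other chromosome. Others did not. The cluster of 12 peaks centred at 67.4% of 9_10L had its nearest, of 6 peaks, 1.52% away. That of 8 peaks centred at 90.1% had its nearest, of 5 peaks, 2.52% away. A cluster of 10 p300 peaks over 16.5 kb lay at 2.52% of 9_10L (2968118 to 2984616), and one of 10 over 16.0 kb lay at 2.53% of 9_10S (2648485 to 2664498). Each contained 2 H3K4me3 peaks. A cluster of 9 peaks over 39.8 kb began at 1.38% of 9_10L (1624951 to 1664720) and one of 8 over 20.1 kb at 1.31% of 9_10S (1371096 to 1391181). The 9_10S cluster included the 6662 bp H3K4me3 domain. A cluster of 8 peaks over 23.0 kb began at 8.82% of 9_10L (10394026 to 10417030) and one of 7 over 22.4 kb at 8.91% of 9_10S (9320829 to 9343214). The former contained 1 H3K4me3 peak and the latter none in any list, the nearest of the series-wide list being 73.6 kb away. At 79.8% of 9_10L, 12 p300 peaks lay over 14.3 kb (94103101 to 94117358) around the 7794 bp H3K4me3 domain, and at 80.5% of 9_10S, 11 lay over 23.2 kb (84251267 to 84274445).

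Over all clusters, 28 of 47 on 9_10L had a cluster of 9_10S within 1% of the span, and 30 of 41 on 9_10S had one on 9_10L. The median distance to the nearest was 0.666% and 0.456% of the span. With so many clusters on each chromosome near neighbours are common. The share that random placement would give, and that on the other 8 pairs, was not worked out. No sequence was compared, and whether any such pair is homeologous was not tested. Of the clusters, 5 on each chromosome were overlapped by no series-wide H3K4me3 peak, not even by 1 bp, and of these 2 on each were overlapped by none in either replicate. Elsewhere a peak is counted in a window, cluster or stretch by its centre. The largest cluster without overlap held 8 p300 peaks on 9_10L (106241785 to 106253599), with 7 and 8 in the replicates. Series-wide H3K4me3 peaks thus overlapped 42 of 47 clusters on 9_10L and 36 of 41 on 9_10S. On the other 16 chromosomes this share lay between 20 of 27 on 5S and 36 of 37 on 2L, so neither chromosome stood apart.

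The longest stretch without H3K4me3 lay near the middle of both chromosomes. On 9_10L it ran for 1833 kb (54119541 to 55952337), from 45.9 to 47.5% of the span, and on 9_10S for 2222 kb (48981622 to 51204021), from 46.8 to 48.9%. Each contained no H3K4me3 peak in replicate 1 and 1 in replicate 2. They were not empty of p300, with 5 series-wide p300 peaks on 9_10L (8 and 16 in the replicates) and 6 on 9_10S (7 and 21). The longest stretches without p300 lay elsewhere, at 75048162 to 76758708 on 9_10L (1711 kb, from 63.7% of the span) and 76968328 to 78598149 on 9_10S (1630 kb, from 73.6%). The former contained 18 H3K4me3 peaks and the latter 5. They were less empty in the replicate lists, with 2 and 11 p300 peaks on 9_10L and 3 and 4 on 9_10S. In the replicate lists by themselves, the longest stretches without p300 were 1.52 and 0.680 Mb on 9_10L and 0.956 and 1.08 Mb on 9_10S. Those without H3K4me3 were 1.83 and 1.59 Mb on 9_10L and 2.22 and 1.41 Mb on 9_10S. Whether these stretches hold unmapped sequence or repeats was not tested.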

How the data were processed

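The authors deposited 6 peak lists, a list for each of 2 replicates and a series-wide list for each of 2 targets, as interval positions with no score. BWA 0.7.10-r789, bedtools and MACS2 2.1.0.20140616 were used, per the submitters' processing notes. Not given in the sources used here were the build, peak threshold, control, duplicate handling and the sequencer of each library. Of 11 samples, 4 had lists; the 7 others were not analysed here. Depth is unknown and may change which peaks were called.

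Coordinates are 1-based in the files' unnamed build. Span runs to the last peak found in any of the lists and is a lower bound of chromosome length. Peaks overlapped where they shared 1 bp or more (numpy 2.4.6, scipy 1.17.1, Python 3.11.15). A peak was put in a part by its centre. The 6 interval functions passed their checks in 20 of 20 runs, with simulated data for overlaps, gaps and windows. The check of clusters used the same planted list in every run, and that of parts tested only the total count. Named regions were, per chromosome, the 3 widest peaks and the 3 richest 100 kb windows of each target, the largest p300 cluster, the longest stretch without each target, and the richest and poorest of 20 parts. The members and these lists were chosen with earlier results of these data known. Alternatives were each replicate's lists alone, same-numbered lists together, stricter or looser overlaps and widths, joined peaks, bases covered, other cluster gaps and other numbers of parts. With 2 replicates a target and no signal values, no test was run.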

Additional observations from a re-analysis of the deposited data

Results flagged for a closer look

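In 5 of the 20 parts the replicate lists of the 2 targets fell on opposite sides of equal density between 9_10L and 9_10S: both H3K4me3 replicates were denser on one chromosome and both p300 replicates on the other. The difference between the targets was not tested, and the parts hold few peaks. How many such parts unrelated targets would give was not worked out, nor was their number on the other pairs. Whether these parts exceed that background is therefore unknown. The parts were picked by the signs of the replicate values, so those signs add nothing further. The series-wide log2 L to S ratio per Mb of p300 minus that of H3K4me3 was -0.57 in part 9, -0.23 in part 13 and -0.80 in part 17, where p300 was denser on 9_10S. It was 0.82 in part 10 and 0.67 in part 11, where p300 was denser on 9_10L. The replicate values in part 9 were 0.16 and 0.27 for H3K4me3 and -0.48 and -0.38 for p300. Those in part 11 were -0.20 and -0.065 for H3K4me3 and 0.49 and 0.55 for p300. In part 10 the second p300 replicate was close to 0, at 0.086, and in part 13 the first was, at -0.054. In the series-wide and replicate 2 lists, part 17 had the fewest p300 peaks of 9_10L and the fewest H3K4me3 peaks of 9_10S; in replicate 1 these were in parts 15 and 10.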

How the results depend on the processing

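The share of p300 peaks in clusters, 9_10L minus 9_10S, was -3.82 points in the series-wide list and turned to 1.43 in the replicate 2 list; it was -3.53 in replicate 1. No other value computed for whole chromosomes changed sign. Single parts were not examined this way, and in 4 parts for each target the denser chromosome differed between lists. A whole-chromosome value is called moved here where it differed from the series-wide value by at least the standard deviation of the 2 replicate values. For recurrence the limit came from the Clopper-Pearson interval instead. With 2 replicates that standard deviation can be very small or large. The share of p300 peaks at H3K4me3 on 9_10L is thus not called moved, at 39.2% and 20.5% in the replicates against 30.1% series-wide. Replicate lists alone gave log2 L to S ratios of 0.28 to 0.30 for H3K4me3 and 0.28 to 0.36 for p300, or 0.10 to 0.13 and 0.10 to 0.19 per Mb, and a difference between targets of 0.0017 to 0.057. In the same order they gave 33.0 to 33.9% of H3K4me3 peaks with p300 on 9_10L and 31.2 to 31.9% on 9_10S, 1.11 to 2.72 points between these, and 0.977 to 1.58 points between the shares of p300 at H3K4me3. They gave 68 to 90 clusters on 9_10L, with 24.3 to 24.9% of p300 peaks, 59 to 73 on 9_10S, with 22.9 to 28.4%, and a profile r of 0.92 to 0.95 for H3K4me3 and 0.83 to 0.84 for p300. With the replicate number as a block (replicate block, same-numbered lists paired), the difference between targets was 0.029, the shares of H3K4me3 peaks with p300 were 33.5% and 31.5%, and those of p300 at H3K4me3 29.9% and 28.6%; the numbers are not known to mark shared embryos.

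The wider 50% of each list gave H3K4me3 ratios of 0.34, or 0.17 per Mb, a difference of 0.083 between targets, 18.7% and 16.5% of H3K4me3 peaks with p300 (2.24 points apart), p300 shares 1.37 points apart, median gaps of 21.9 and 24.3 kb, and an H3K4me3 profile r of 0.95. Bases covered gave 0.35 for H3K4me3, 0.18 per Mb, and a difference of 0.080. Intervals of at least 100 bp gave 24.7% and 20.9% of H3K4me3 peaks with p300, and 22.3% of p300 peaks of 9_10L in clusters. An overlap of 50% of the shorter peak gave 23.3% and 20.1% with p300, and p300 shares 1.49 points apart. Counting peaks under 1000 bp apart gave 29.8% and 24.1% with p300, 5.75 points apart, and p300 shares 4.19 points apart. With equal numbers of the widest peaks of each replicate, H3K4me3 recurrence in replicates 1 and 2 was 84.5% and 88.0% on 9_10L and 85.3% and 86.3% on 9_10S, and p300 recurrence 55.6% and 59.5%, and 52.0% and 55.5%. Cluster gaps of at most 5 kb left 22 and 17 clusters with 9.94% and 10.7% of p300 peaks, and gaps of at most 25 kb put 36.2% and 39.9% in clusters. Profile r was 0.91 for p300 over 10 parts, and 0.60 for H3K4me3 and 0.44 for p300 over 100 parts. Without part 1 it was 0.86 and 0.80. The settings with 100 parts, without part 1, and with bases covered per Mb were chosen after seeing the data. Counts of peaks in single parts, windows and clusters were compared with each replicate list alone, and 50 of these comparisons moved by over 1.5 times. For the longest stretches the limit was the standard deviation of the 2 replicate values. With them included, 55 comparisons of single regions moved and 317 did not. Every p300 part count of replicate 2 was among those that moved, for instance 246 against 142 in part 1 of 9_10L. The p300 replicate 2 list held 2981 peaks on 9_10L and 2460 on 9_10S, against 1438 and 1073 series-wide. The part of list length in the moved counts was not tested.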
